A study of Mus musculus with 6 samples.

Results

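The circadian clock of mouse articular chondrocytes was examined through 10 clock genes: Arntl, Npas2, Per1, Per2, Cry1, Nr1d1, Nr1d2, Dbp, Tef and Bhlhe40. They were taken by name from the platform's gene table, and a gene with several probe sets was read from its brightest. Of the 10, 9 had a probe set of their own, among 22180 genes measured in all. The only probe set listed for Per2 also carries the symbol of another gene, and no level of Per2 is given here. The treated cells were primary articular chondrocytes of wild-type ICR mice aged 5 days, cultured with IL-1β, a proinflammatory cytokine of osteoarthritic joints, for 24 h (3 arrays). The other group was untreated chondrocytes of the same strain, age and genotype (3 arrays). Cells were grown as a monolayer from femoral condyle and tibial plateau cartilage, and IL-1β was used at 1 ng/ml where the methods state no other dose. The labels call the arrays biological replicates 1 to 3 of each group and do not say whether these were separate litters, nor at what time of day or after what synchronization the cells were harvested. Each value is therefore a level in 1 harvest, from which neither the phase nor the amplitude of a rhythm can be read.

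The mammalian clock is a transcriptional feedback loop. The product of Arntl, BMAL1, pairs with CLOCK or its relative NPAS2 and binds E-boxes in DNA to switch on the Per and Cry genes, whose proteins then shut BMAL1 activity off. In an adjoining loop, the nuclear receptors REV-ERBα (Nr1d1) and REV-ERBβ (Nr1d2) repress Arntl and the ROR receptors activate it through the same DNA element. A set of bZIP factors, among them DBP and TEF, carries the rhythm to output genes through D-boxes. Chondrocytes are known to keep such a clock of their own.

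The motifs behind this scheme can be seen close to the start sites of some of the genes. RefSeq windows from 250 bases before to 50 bases after a start (GRCm38.p6) were at hand for 8 of the 10 genes, in 11 windows. They were searched on both strands for the E-box CACGTG, the E′-box CACGTT, the D-box TTANGTAA, the core TAGGTCA of the element shared by REV-ERB and ROR, the cAMP element TGACGTCA and the AP-1 element TGANTCA. At least 1 of these was found in 6 of the 11 windows. The 200 bases upstream of Per1, Nr1d1 and Cry1 are printed because they hold an E-box or E′-box while the genes differ in their response to IL-1β, and 30 bases of Arntl are printed because they hold the REV-ERB/ROR core. Each is given 5′ to 3′ on the strand of its gene, and capitals mark the motifs (AACGTG is the E′-box read on the other strand).
Per1, chr11:69098749-69098948, plus strand: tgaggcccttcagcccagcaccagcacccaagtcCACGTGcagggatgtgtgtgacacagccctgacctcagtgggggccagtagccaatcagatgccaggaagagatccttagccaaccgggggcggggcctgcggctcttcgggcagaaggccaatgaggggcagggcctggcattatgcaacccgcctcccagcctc
Nr1d1, chr11:98775378-98775577, minus strand: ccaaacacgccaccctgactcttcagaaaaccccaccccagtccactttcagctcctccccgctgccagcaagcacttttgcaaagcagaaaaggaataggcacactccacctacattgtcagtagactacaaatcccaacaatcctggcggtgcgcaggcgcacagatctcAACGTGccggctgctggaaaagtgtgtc
Cry1, chr10:85185055-85185254, minus strand: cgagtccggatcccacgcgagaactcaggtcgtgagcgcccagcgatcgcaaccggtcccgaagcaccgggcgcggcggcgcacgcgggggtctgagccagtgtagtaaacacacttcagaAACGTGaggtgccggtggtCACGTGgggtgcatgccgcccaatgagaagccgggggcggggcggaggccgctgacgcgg
Arntl, chr7:113207530-113207559, plus strand: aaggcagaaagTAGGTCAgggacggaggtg
The E-box starts 166 bases upstream of Per1, in 1 of its 2 windows, and 60 bases upstream of Cry1. The E′-box starts 28 bases upstream of Nr1d1 and 79 bases upstream of Cry1. The REV-ERB/ROR core starts at base 31 of the Arntl transcript, in 1 of the 2 Arntl windows. Both windows of Tef also hold an E-box. No D-box, cAMP element or AP-1 element was found in these 11 windows. Of all 32851 windows in the table, 7.15% hold the E-box, 4.68% the E′-box, 2.32% the D-box, 2.61% the REV-ERB/ROR core, 1.79% the cAMP element and 7.81% the AP-1 element. A match describes the letters of a window and is not evidence that a factor binds there.

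With IL-1β, 5 of the 9 measured clock genes rose: Arntl and Npas2 of the activating limb, the repressor genes Per1 and Nr1d1, and Bhlhe40. Clock, whose product also pairs with BMAL1, is outside the 9 and had no call (adjusted p = 0.380 from limma). None of the 9 fell (0 also at an unadjusted p under 0.05 from limma, and 0 by the methods' t-test), and Cry1, Nr1d2, Dbp and Tef did not pass the test. A gene passed at an adjusted p under 0.05 in a limma fit of all 22180 genes (Benjamini-Hochberg). Levels are log2 signals after RMA, the authors' normalization. By that rule 8.32% of all genes were higher with IL-1β and 8.88% were lower. In the same 5 clock genes the lowest treated array was above the highest untreated one, as was the case for 15.0% of all genes. These shares of all genes take in 8254 genes with both group means under the background level of 4.57. None of the 9 clock genes was among those. In a fit without the genes under background, 2134 genes were higher and 2380 lower, which are larger shares of fewer genes. The median log2 fold change, IL-1β minus untreated, was 0.55 over the 9 clock genes and -0.02 over all genes. The clock genes were chosen with earlier results of these data known. In bulk RNA, fewer cells of a type and less RNA per cell cannot be told apart.

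**Figure D1:**
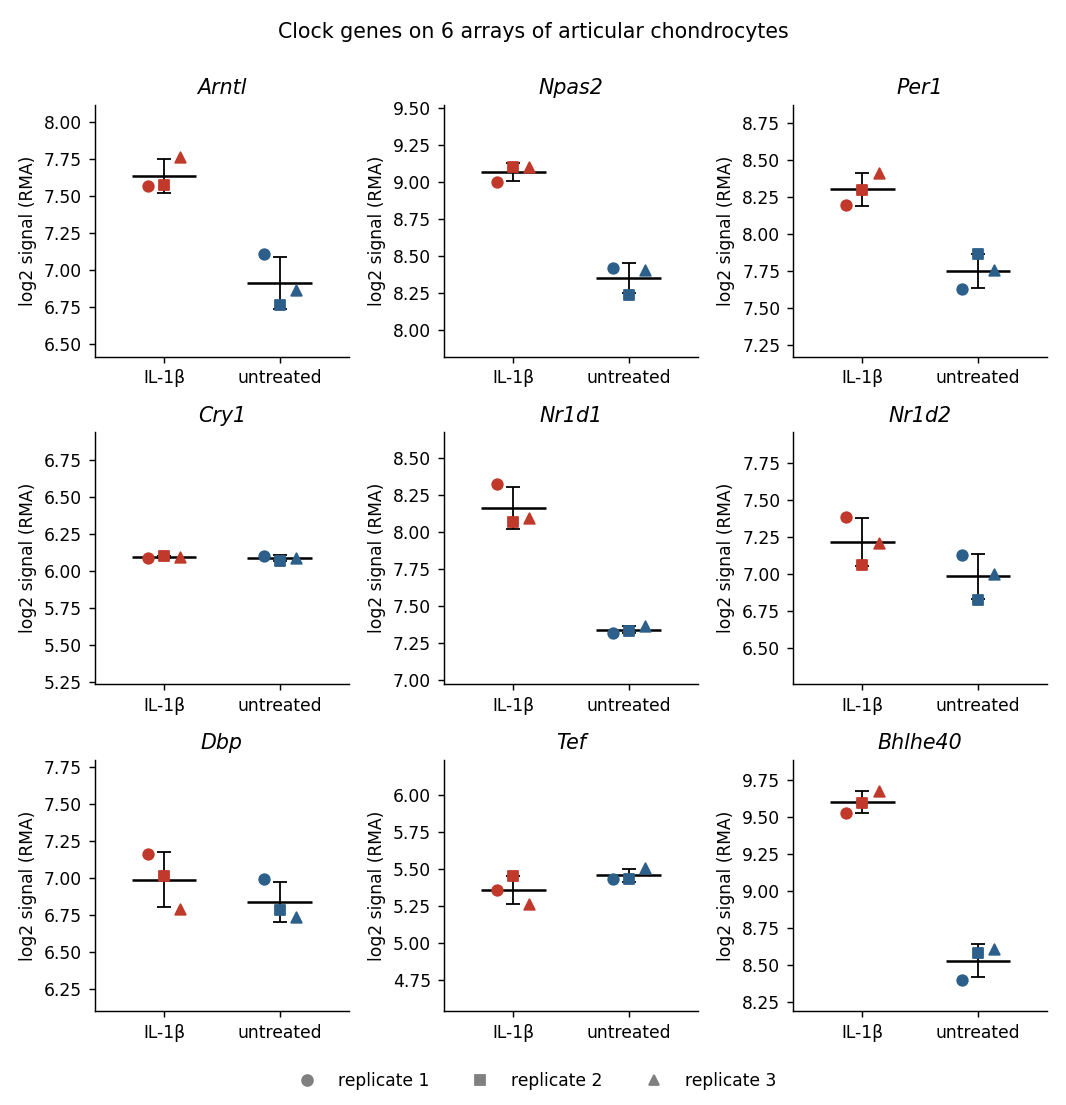
Log2 RMA signal of 9 clock genes on each array (points, with 1 marker shape for each replicate number), for IL-1β-treated and untreated chondrocytes; horizontal lines are means and bars are SD (n = 3 arrays each), and all panels span the same number of log2 units. Arntl, Npas2, Per1, Nr1d1 and Bhlhe40 show no overlap between the groups, with the widest gap in Bhlhe40 (0.92 between the lowest treated and the highest untreated array).

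In the activating limb, Arntl had log2 signals of 7.57, 7.57 and 7.76 in treated chondrocytes, against 7.10, 6.76 and 6.87 in untreated chondrocytes. Every treated array was above every untreated array, by 0.46 at the closest. The fold change was 1.65 (95% interval 1.37 to 1.98; log2 0.72, standard error 0.12, adjusted p = 0.00285 from limma). Npas2, whose product can take the place of CLOCK beside BMAL1, gave 9.00, 9.10 and 9.11 with IL-1β and 8.42, 8.24 and 8.40 without it. Its groups were likewise apart, and its fold change was 1.64 (95% interval 1.41 to 1.91; log2 0.71, standard error 0.10, adjusted p = 1.00e-03 from limma). Clock itself had log2 signals of 9.32, 9.11 and 9.27 with IL-1β and of 9.46, 9.42 and 9.28 without it, with no call (log2 fold change -0.16, 95% interval -0.39 to 0.07, adjusted p = 0.380 from limma).

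In the repressing limb, Per1 rose and Cry1 did not pass. Per1 signals were 8.19, 8.30 and 8.41 in treated cells, against 7.63, 7.87 and 7.76 in untreated cells, without overlap. This was a fold change of 1.47 (95% interval 1.24 to 1.73; log2 0.55, standard error 0.11, adjusted p = 0.00666 from limma). Cry1, which encodes a cryptochrome that acts with the PER proteins, stayed between 6.07 and 6.11 on all 6 arrays. It had 6.09, 6.10 and 6.10 with IL-1β and 6.11, 6.07 and 6.09 without it. The fold change of Cry1 was 1.00, and its 95% interval ran from 0.879 to 1.15 (adjusted p = 0.977 from limma). Per3 and Cry2, relatives of these genes from the list of other core clock genes, had no call either, at 0.09 and 0.03 on the log2 fold change scale.

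Bhlhe40, which encodes the E-box-binding repressor DEC1, had the highest fold change of the set. Its signals were 9.53, 9.60 and 9.67 in treated chondrocytes, against 8.40, 8.58 and 8.60 in untreated chondrocytes. The lowest treated array stood 0.92 above the highest untreated one. The fold change was 2.10 (95% interval 1.80 to 2.46; log2 1.07, standard error 0.10, adjusted p = 1.27e-04 from limma), and Bhlhe40 was the only one of the 9 with a log2 fold change above 1. Its relative Bhlhe41 gave no call, with 6.61, 6.64 and 6.62 with IL-1β and 6.72, 6.13 and 6.67 without it (log2 fold change 0.12, 95% interval -0.23 to 0.47, adjusted p = 0.694 from limma). Over the 6 arrays, the genes closest to Bhlhe40 among 13128 others above background were Cdkn1a, Rnd3 and Exoc4. Their profiles, each centered on its own mean, differed from that of Bhlhe40 by a root mean square of 0.036, 0.044 and 0.048 log2 units. Cdkn1a encodes the cell cycle inhibitor p21 and Exoc4 a subunit of the exocyst. All of them rose with IL-1β, so that the likeness includes the difference between the groups.

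Of the REV-ERB genes, Nr1d1 rose and Nr1d2 did not pass. Nr1d1 had signals of 8.32, 8.07 and 8.09 in treated cells, against 7.32, 7.33 and 7.36 in untreated cells. The lowest treated array stood 0.70 above the highest untreated one, and the untreated arrays had an SD of 0.02. The fold change was 1.77 (95% interval 1.51 to 2.08; log2 0.82, standard error 0.10, adjusted p = 6.04e-04 from limma). Nr1d2 gave 7.39, 7.06 and 7.21 with IL-1β and 7.13, 6.83 and 6.997 without it, and the groups overlapped. Its fold change was 1.18 (95% interval 0.972 to 1.42; log2 0.23, adjusted p = 0.258 from limma). Each treated array of Nr1d2 was nonetheless above the untreated array of the same number, by 0.26, 0.24 and 0.21. A limma fit with replicate number as a block did not call Nr1d2 either (adjusted p = 0.0999). Dbp was likewise higher at each number, by 0.17, 0.23 and 0.06. An interval that reaches 1.42 does not show that Nr1d2 was unaffected.

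The difference between Nr1d1 and Nr1d2 within each array was 0.94, 1.00 and 0.88 log2 units with IL-1β, against 0.19, 0.50 and 0.36 without it. It was thus wider on every treated array, by 0.59 on average. An exact two-sided permutation test of 3 against 3 arrays gave p = 0.1, the smallest it can give (0.3 after Benjamini-Hochberg over the 3 pairs compared). Dbp minus Tef was 1.80, 1.57 and 1.53 with IL-1β and 1.56, 1.36 and 1.23 without it, with overlap (exact permutation p = 0.2, adjusted 0.3). Between arrays of the same number, this difference was wider with IL-1β by 0.24, 0.21 and 0.30, and that of Nr1d1 and Nr1d2 by 0.75, 0.50 and 0.52. Arntl minus Npas2 averaged -1.44 ± 0.09 with IL-1β and -1.44 ± 0.11 without it (SD, n = 3 arrays each; exact permutation p = 0.9, adjusted 0.9). The change of this difference was 0.01 log2 units on average (-0.12, -0.05 and 0.20 between arrays of the same number), and between -0.04 and 0.07 when 1 array was left out. The pair of Per1 and Per2 was not compared. The level of such a difference also depends on how strongly each probe set binds, and only its change between groups is read.

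**Figure D2:**
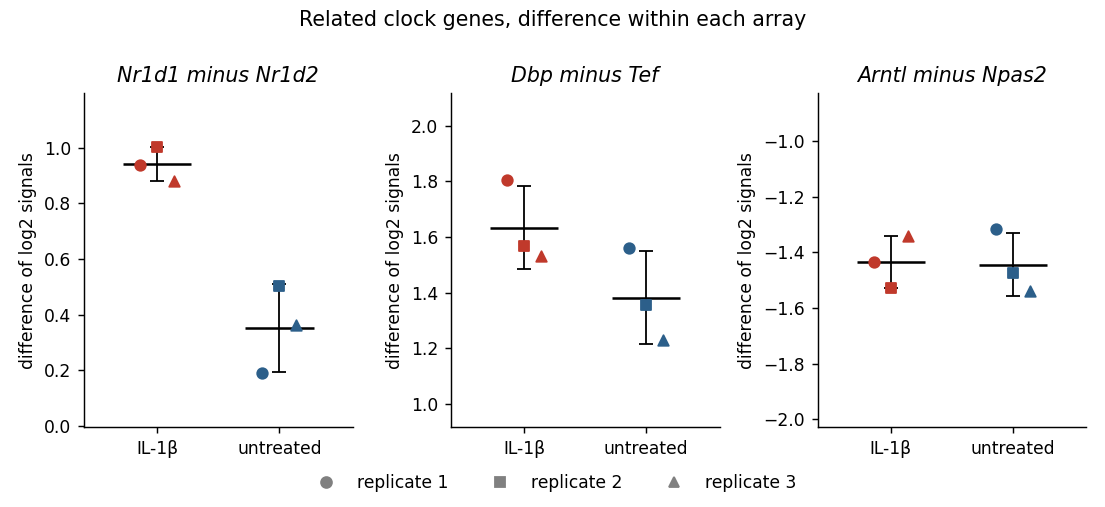
Difference of the log2 signals of 2 related clock genes within each array (points, with 1 marker shape for each replicate number), in IL-1β-treated and untreated chondrocytes; lines are means and bars are SD (n = 3 arrays each), and the panels span the same number of log2 units. The groups are apart for Nr1d1 minus Nr1d2 (0.88 to 1.00 with IL-1β, 0.19 to 0.50 without) and overlap for the other 2 pairs.

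The D-box activators Dbp and Tef gave no call. Dbp signals were 7.16, 7.02 and 6.80 in treated cells, against 6.99, 6.79 and 6.74 in untreated cells. The groups overlapped, and the fold change was 1.11 (95% interval 0.915 to 1.35; adjusted p = 0.502 from limma). Tef gave 5.36, 5.45 and 5.27 with IL-1β and 5.43, 5.43 and 5.51 without it. Its fold change was 0.933 (95% interval 0.806 to 1.08; adjusted p = 0.575 from limma), and its dimmer probe set had a log2 fold change of -0.23, also without a call. Within the treated group, replicate 1 was the highest array for Nr1d1, Nr1d2 and Dbp and the lowest for Arntl, Npas2, Per1 and Bhlhe40. For Arntl, treated replicates 1 and 2 were nearly equal (7.565 and 7.572). The untreated group had another order: its replicate 1 was highest for Arntl, Npas2, Nr1d2 and Dbp and lowest for Nr1d1, Per1 and Bhlhe40. These orders were seen in the values and were not tested.

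Beyond these genes, 12 of 13 other core clock genes were measured, and 2 rose and 2 fell. That was 16.7% each, against 8.32% of all genes higher and 8.88% lower. These shares of all genes include 8254 genes under background in both groups and are larger without them. Of the 12 genes, only Rorb was under background in both groups. Nfil3, which encodes the D-box repressor E4BP4, had 7.71, 7.70 and 7.64 with IL-1β, against 6.11, 6.29 and 6.07 without it. This was a 2.88-fold rise (log2 1.53, standard error 0.10, adjusted p = 1.72e-05 from limma), while the D-box activator Hlf, like Dbp and Tef, had no call (log2 fold change -0.13, adjusted p = 0.641 from limma). Rora, which encodes an activator at the element where REV-ERB represses, had 7.31, 7.21 and 7.35 with IL-1β, against 6.51, 6.03 and 6.39 without it. Its fold change was 1.98 (log2 0.98, standard error 0.13, adjusted p = 9.80e-04 from limma), so that the genes of an activator and a repressor of Arntl, Rora and Nr1d1, were both higher. Rorb was under the background level of 4.57 in both groups. Timeless and Tipin, whose products form a complex at replication forks, fell by 0.53 and 0.75 on the log2 scale (adjusted p = 0.00742 and 0.00890 from limma). The methods' t-test did not call Tipin (adjusted p = 0.0895). Arntl2, a relative of Arntl, gave no call at 0.31 on the log2 scale (adjusted p = 0.112 from limma). Its groups nonetheless did not overlap (5.55, 5.64 and 5.56 with IL-1β, 5.23, 5.48 and 5.11 without it). Arntl2 passed when untreated replicate 2 was left out, with array weights, and when only genes above the median mean signal were tested. Ciart, a repressor of BMAL1 activity, had -0.09 on the log2 scale. The median log2 fold change of the 12 genes was -0.002, against 0.55 in the 9 listed genes. Both lists were chosen with earlier results of these data known, and the medians were not compared by a test.

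**Figure D3:**
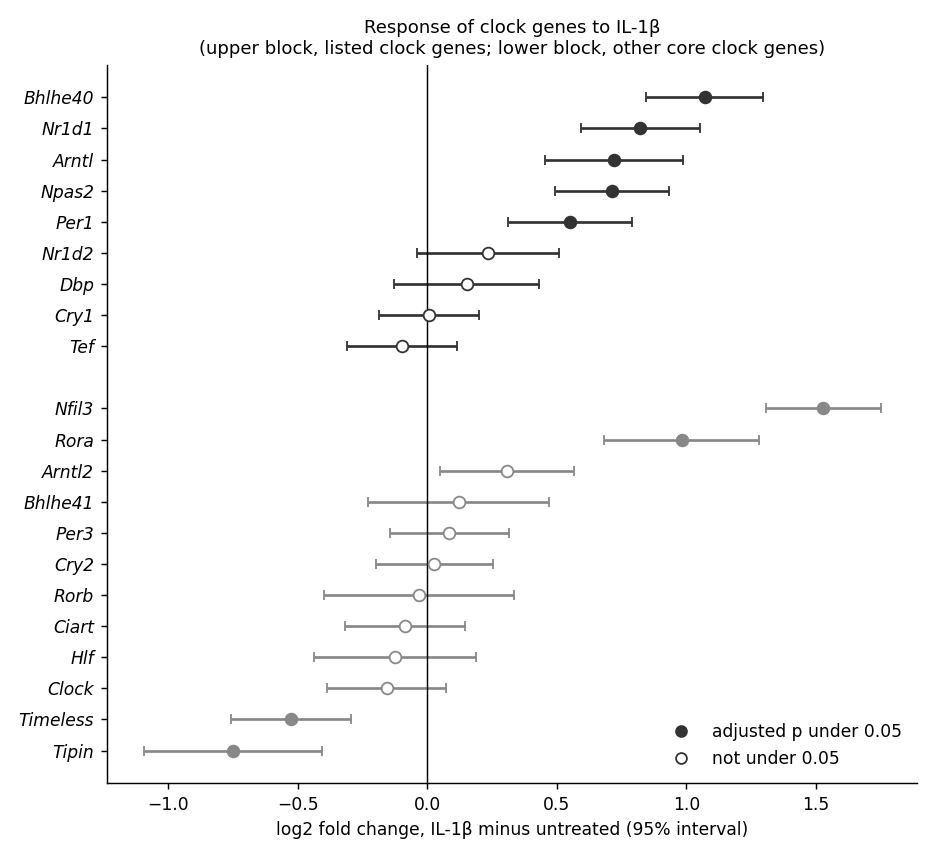
Log2 fold change, IL-1β minus untreated, of 9 listed clock genes (upper block) and 12 other core clock genes (lower block), with 95% intervals from limma (n = 3 arrays per group); filled points have an adjusted p under 0.05. The filled points to the right run from 0.55 (Per1) to 1.53 (Nfil3), and the 2 to the left are Timeless and Tipin.

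Kinases and ubiquitin ligases set how long clock proteins last. Of 12 measured genes of this kind, 2 rose (Gsk3b and Fbxw7, 16.7%) and none fell, with log2 fold changes between 0.01 and 0.41 over the list. Among all genes, 8.32% were higher and 8.88% lower. Gsk3b passed in 1 of the 6 fits that left out 1 array (without untreated replicate 1) and Fbxw7 in another (without IL-1β replicate 2). Of 11 measured cofactor genes, 1 rose (9.09%, near the share of all genes) and 3 fell (Ezh2, Wdr5 and Sirt1, 27.3%). Ep300, a histone acetyltransferase gene, rose by 0.50 on the log2 scale (adjusted p = 0.00584 from limma), and Ezh2, which encodes a histone methyltransferase of the Polycomb complex, fell by 0.64 on the log2 scale (adjusted p = 8.82e-04 from limma). Sirt1 passed in 0 and Wdr5 in 1 of the 6 fits that left out 1 array. Of 11 measured genes known as clock outputs, 6 rose (54.5%) and 2 fell (18.2%), Fkbp5 and Wee1. Vegfa, the vascular growth factor gene, rose 2.44-fold, Cdkn1a 2.09-fold, Lpin1, which encodes the phosphatidate phosphatase lipin 1, 1.97-fold, and Nampt, which encodes an enzyme of NAD synthesis, 1.67-fold. Klf9 also rose, but passed in only 1 of the 6 fits that left out 1 array. Wee1, the gene of a kinase that holds cells before mitosis, fell by 1.08 on the log2 scale (adjusted p = 3.51e-04 from limma). Vegfa, Cdkn1a and Nampt are also known as targets of hypoxia, p53 or inflammatory signaling, so that the list is not read as output of the clock alone. Over the 4 lists of other clock genes, 11 of 46 rose (23.9%) and 7 fell (15.2%), against 8.32% and 8.88% of all genes. Only 3 of these 46 genes were under background in both groups, against 8254 of all 22180. In a fit without such genes, 14 of the other clock genes rose and 8 fell. In that fit 2134 of all genes rose and 2380 fell, which are larger shares than 8.32% and 8.88%. When 1 array was left out, 8 to 11 of the other clock genes rose and 4 to 6 fell. Of all genes, 1315 to 1746 rose and 1345 to 1786 fell in these fits. The count of falls among the other clock genes was 4 without IL-1β replicate 3 and without untreated replicate 3, where Sirt1, Wdr5 and Fkbp5 did not pass.

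**Figure D4:**
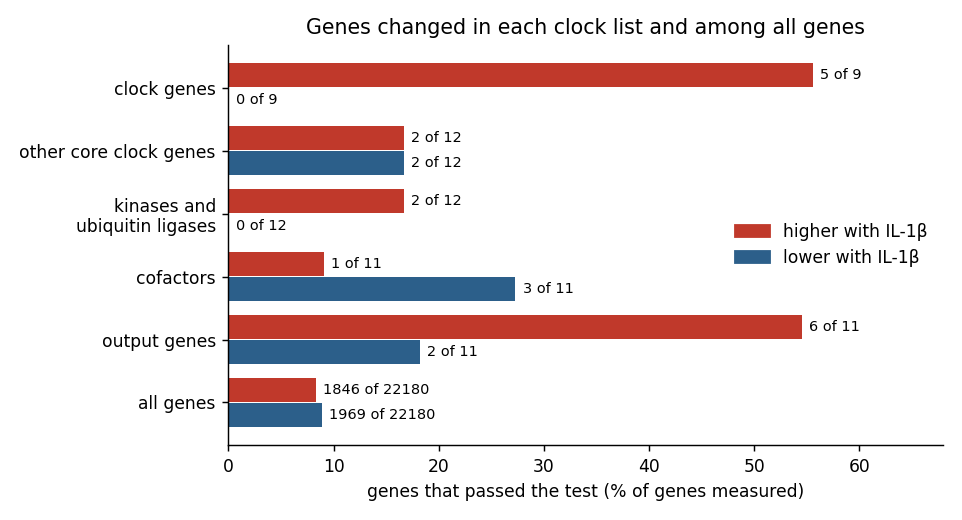
Share of measured genes that passed the test (adjusted p under 0.05 from limma), higher or lower with IL-1β, in 5 lists of clock genes and among all genes; labels give the counts. Clock genes in the top row had 5 of 9 higher and 0 of 9 lower, against 1846 and 1969 of 22180 among all genes. Of all genes, 8254 were under background in both groups, as was none of these 9.

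The identity of the cells was read from marker lists. All 14 chondrocyte marker genes were above background in both groups and all fell with IL-1β, the mean log2 signal over the list being 9.63 to 9.94 on treated and 11.11 to 11.22 on untreated arrays. Of 9 fibroblast and synovium markers, 6 rose (Col3a1, Pdgfra, Dcn, Lum, Fap and Prg4) and 1 fell (Col1a2), while Col1a1 and Thy1 had no call. The shares of all genes were 8.32% higher and 8.88% lower. All 9 were above background in both groups (list mean 9.46 to 9.67 on treated and 8.71 to 8.89 on untreated arrays). Of 9 macrophage and leukocyte markers, Cd68 rose, and 5 genes, Ptprc and Adgre1 among them, were under background in both groups (list mean 4.30 to 4.50 on treated and 4.16 to 4.40 on untreated arrays). Of 6 endothelial and 6 osteoblast markers, 3 of each were under background in both groups, and Tek (endothelial) and Ibsp (osteoblast) rose while Sp7 (osteoblast) fell. Tek had an untreated mean of 3.82, under the background level of 4.57, and a treated mean of 4.68, just above it. Sp7 passed narrowly (adjusted p = 0.0497 from limma). The list means were 4.17 to 4.29 on treated and 3.99 to 4.26 on untreated arrays for endothelial markers, and 4.73 to 4.91 and 4.61 to 4.83 for osteoblast markers. The part of these shifts in the clock gene values was not tested.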

How the data were processed

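RNA of 6 chondrocyte cultures was measured on Affymetrix mouse gene ST arrays. The authors normalized the probe signals by RMA within this data set with the affy package in R, and the deposited values are these log2 signals, from 0.909 to 13.04 over 41345 probe sets, used as deposited. Array medians lay between 4.66 and 4.73. All value columns matched a sample. The methods mention 4 replicates, and the labels 3 per group; 3 per group were used. Of the probe sets, 23521 name 1 gene and 1820 name several. Probe sets with several genes, such as that of Per2, or in no list gave no value. Symbols were updated by Entrez ID to GRCm38.p6 (23328 found), giving 22180 genes, each read from its brightest probe set.

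The comparison of groups used limma (3.58.1, under R 4.3.3; lmFit, eBayes), with Benjamini-Hochberg adjustment over all genes and no filter, in place of the t-test of the methods, and the fit was tested on simulated data. Pairs of related genes were compared by an exact permutation test (scipy 1.17.1). Each limma p-value sets the difference between the groups against the spread of these arrays within the groups, moderated over all genes. The number of arrays limits the precision. The background level, 4.57, is the 95th percentile of the signals of 1443 chemosensory receptor probe sets. Deviations from group means of arrays with the same replicate number correlated at 0.101, 0.379 and 0.189 across genes, all above the limit of 0.1, although crossed numbers gave up to 0.226, so that replicate number was also used as a block; the labels do not say what a number stands for.

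The clock genes and the other lists were chosen with earlier results of these data known. Named were all listed clock genes and other core clock genes, genes of the other clock lists that passed with a log2 fold change over 0.5 in either direction, the 3 genes closest to the clock gene with the largest rise (none fell), and any gene named for its call under an alternative or as a marker, which was chosen after its values were seen. Alternatives were the methods' t-test, a replicate block, leaving out arrays, renormalization, filters, other variance priors, array weights, the mean of probe sets and testing all probe sets.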

Additional observations from a re-analysis of the deposited data

How the results depend on the processing

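Arntl, Npas2, Per1, Nr1d1 and Bhlhe40 rose in all 17 refits, with adjusted p at most 0.0376 (Per1, methods' t-test); among them were the replicate block (adjusted p = 0.00595, 0.00324, 0.00727, 0.00206 and 4.72e-04) and each fit without 1 array, where 5 clock genes were higher and 0 lower every time. Nr1d2, Dbp, Tef and Cry1 passed in none of them; the lowest adjusted p was 0.0527 for Nr1d2, with array weights. With the limit of 1 on the log2 fold change that the methods add to their t-test, only Bhlhe40 was left (1 gene), as were 3 of the other clock genes that rose and 1 that fell, and 463 and 299 of all genes. The log2 fold change of Cry1 was near 0 and its sign turned: -0.013 after a second quantile normalization and -0.024 with arrays centered on the median. It was -0.0060 when both arrays numbered 2 were left out, a fit that was added once the data had been seen. Leaving out 1 array gave Cry1 values from -0.0035 (without untreated replicate 2) to 0.014. Of the other clock genes, 17 rose with array weights and 4 fell by the methods' t-test, against 11 and 7. The counts over all genes moved the same way, to 2656 higher with array weights and 1471 lower by the t-test, against 1846 and 1969. Leaving out 1 array gave 8 to 11 and 4 to 6 of the other clock genes, and 1315 to 1746 and 1345 to 1786 of all genes. The replicate block ended the call of Sirt1 (adjusted p = 0.0581) and added Csnk1a1, Kdm5a and Pdk4; it changed no call of the 9 clock genes. The difference between Nr1d1 and Nr1d2 grew by 0.51 to 0.66 log2 units when 1 array was left out, that between Dbp and Tef by 0.17 to 0.34, and that between Arntl and Npas2 moved by -0.04 to 0.07. Signals near the background level, such as those of Rorb, limit what can be seen there.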

Other observations

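Arntl and Nr1d1, which peak at opposite times of day in a synchronized clock, were both higher on all 3 treated arrays, at log2 fold changes of 0.72 and 0.82, as were the genes of the E-box repressors Per1 (0.55) and Bhlhe40 (1.07). Dbp, whose rhythm is known to run close to that of Nr1d1, had 0.15 with an interval from -0.13 to 0.43. The printed promoters of Per1 and Cry1 both hold the E-box, whose 6 letters were fixed by the search, and the fold changes were 1.47 and 1.00. Both were printed because the genes differ in response, and a part of the E-box in that difference was not tested. How these genes stand to each other was not tested, and the values come from a single time point.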
